A study of Mus musculus with 30 samples.

Results

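The genes described here are 10 imprinted genes that act on growth and are known in blood stem cells: H19, Igf2, Dlk1, Meg3, Mest, Plagl1, Ndn, Grb10, Peg3 and Cdkn1c. They were chosen by gene symbol, and 8 of the 10 were found among the 35727 genes of the deposited table. All 8 were among the 16958 genes that passed the filter on low values, a normalized count of at least 10 in at least 3 libraries. Plagl1 reached 10 in 11 of 30 libraries, Mest in 25 and Peg3 in 29. The other 2, the long noncoding RNAs H19 (ENSMUSG00000000031, chr7:142575529-142578143 on GRCm38) and Meg3 (ENSMUSG00000021268, chr12:109541001-109571726), had no row in the table and are not analysed here. The table held 12 of the 5854 lincRNA genes of the GENCODE M21 annotation, and 21724 of its 21951 protein-coding genes.

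An imprinted gene is read mainly from the copy inherited from one parent, because DNA methylation laid down in the egg or the sperm marks the parental copies differently. Many genes read from the paternal copy favour growth, and many read from the maternal copy restrain it. Mouse blood stem cells express several imprinted growth genes, and loss of the maternal imprint control at H19 or of Cdkn1c is known to take these cells out of quiescence. No allele was told apart in these data, so the values below are sums over both parental copies, and DNA methylation was not measured.

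The study sequenced RNA from sorted haematopoietic stem cells (HSCs) of mouse bone marrow in 30 libraries, each made by Smart-seq2 from 4000 to 5000 cells. The label IL1R1 KO, for loss of the interleukin-1 receptor type 1, was carried by 3 libraries of 2 months, 4 of 1 year and 5 of 2 years. The label bowel germ-free was carried by 3 libraries of 2 months and 2 of 1 year. Wild type (WT) had 4 libraries of 2 months, 5 of 1 year and 4 of 2 years. The labels give no strain, no knockout allele and no other agent. They do not tie replicates to different animals, and the p-values therefore reflect variation among libraries that may be partly technical.

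The promoters of the 3 members whose level passed the test in any comparison are shown first. Each window runs from 250 bases before to 50 bases after a start site that RefSeq gives on GRCm38.p6, 5′ to 3′ on the gene's own strand. Capitals mark TGCCGC or its reverse complement GCGGCA, the 6 letters that the imprint-keeping protein ZFP57 binds when they are methylated.
Ndn, chr7:62348027-62348326, plus strand: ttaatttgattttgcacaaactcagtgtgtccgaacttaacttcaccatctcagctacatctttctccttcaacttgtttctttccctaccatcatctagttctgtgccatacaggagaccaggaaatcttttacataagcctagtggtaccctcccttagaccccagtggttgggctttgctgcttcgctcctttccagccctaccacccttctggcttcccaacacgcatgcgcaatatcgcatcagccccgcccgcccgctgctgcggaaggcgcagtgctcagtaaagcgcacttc
Dlk1, chr12:109452573-109452872, plus strand: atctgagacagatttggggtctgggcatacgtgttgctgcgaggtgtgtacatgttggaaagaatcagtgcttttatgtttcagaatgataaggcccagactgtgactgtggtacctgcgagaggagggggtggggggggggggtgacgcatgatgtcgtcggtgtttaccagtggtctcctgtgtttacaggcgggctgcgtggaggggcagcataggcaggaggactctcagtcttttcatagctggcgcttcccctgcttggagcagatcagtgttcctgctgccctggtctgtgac
Plagl1, chr10:13090582-13090881, plus strand: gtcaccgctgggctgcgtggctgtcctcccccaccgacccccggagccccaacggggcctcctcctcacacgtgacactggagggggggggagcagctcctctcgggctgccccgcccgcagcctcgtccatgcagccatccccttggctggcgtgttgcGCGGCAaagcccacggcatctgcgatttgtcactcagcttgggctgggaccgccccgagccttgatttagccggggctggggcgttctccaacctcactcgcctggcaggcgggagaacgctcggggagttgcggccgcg
The Plagl1 window held 1 copy of the motif and 26 CpG dinucleotides, with a GC share of 70.7%. The Dlk1 window held 0 copies and 9 CpG, and the Ndn window 0 copies and 11 CpG. Of 32851 such windows over all genes, 3813 (11.607%) held the motif on either strand, and the median window had 7 CpG. RefSeq windows were matched for 8 of the 10 members, H19 and Cdkn1c not among them, and 6 of their 15 windows held the motif. Of these 6, 2 windows of Mest overlap almost fully and hold the same copies. A motif match here describes letters and is not a binding site.

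Estimated depth was 15.6 to 56.3 M reads per library, and 1 read was worth 0.523 to 1.78 normalized counts. Depth split some groups fully: WT libraries of 1 year had 32.55 to 56.3 M and those of 2 months 20.0 to 29.5 M. WT libraries of 2 years had 23.6 to 29.6 M. Germ-free libraries had 15.6 to 23.9 M at 1 year and 24.9 to 32.1 M at 2 months. In WT, depth therefore cannot be told apart from age between 1 year and 2 months or between 1 year and 2 years. The same holds between the germ-free ages, and for depth and group between germ-free and WT at 1 year. Il1r1, the gene the knockout label names, was not lower under that label. Libraries labelled IL1R1 KO had 186, 247 and 262 normalized counts of Il1r1 at 2 months, 232, 241, 403 and 262 at 1 year, and 374, 300.0, 281, 409 and 246 at 2 years. WT libraries had 256, 142, 182 and 137 at 2 months, 243, 267, 282, 187 and 179.9 at 1 year, and 193, 312, 383 and 216 at 2 years. No source used here states which part of the gene was removed, so every direction below between these groups rests on the label. All 16 HSC identity markers listed for the check, Procr, Slamf1, Mecom and Hlf among them, were above 0 in every library. Of the 10 libraries of 2 months, 6 stood apart by Mpo, a primary granule gene, with more than 10000 normalized counts. They were IL1R1 KO replicates 1 and 3, germ-free replicates 1 and 3, and WT replicates 2 and 4, and they are called the high-Mpo libraries below. Leaving them out leaves 1 library of 2 months under the IL1R1 KO label and 1 in germ-free, replicate 2 of each, which are then assumed to vary like the other groups, and 2 in WT. Later libraries above 10000 stay in: IL1R1 KO 1 year replicate 2, at 12930, and WT 2 years replicates 1 and 4, at 11719 and 16541. For IL1R1 KO 1 year replicate 1 the age label says 2 months and the title 1 year, and the title was followed.

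Per length, the members fell into a high and a low set. Ndn averaged 1025 normalized counts per kb of merged exons over the 30 libraries, Grb10 304 and Cdkn1c 230. Dlk1 averaged 10.6 per kb, Igf2 9.24, Peg3 7.74, Mest 4.91 and Plagl1 1.91. The 3 highest members are known as brakes on growth signals or on the cell cycle. The low set held the fetal growth factor Igf2, but its lowest member was Plagl1, which also restrains proliferation. Of the other genes in the same imprinted clusters, Slc22a18 and Phlda2, neighbours of Cdkn1c, averaged 354 and 238 per kb. The neighbours of Dlk1 were near the bottom, Rtl1 at 1.07 per kb and Dio3 at 0.0951. Magel2, next to Ndn, and Ins2, next to Igf2, were listed at 0 in all 30 libraries. Smart-seq2 keeps no strand. Reads from stretches that Igf2 shares with its antisense transcript Igf2os, or Mest with the overlapping gene Copg2, therefore cannot be told apart.

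**Figure D1:**
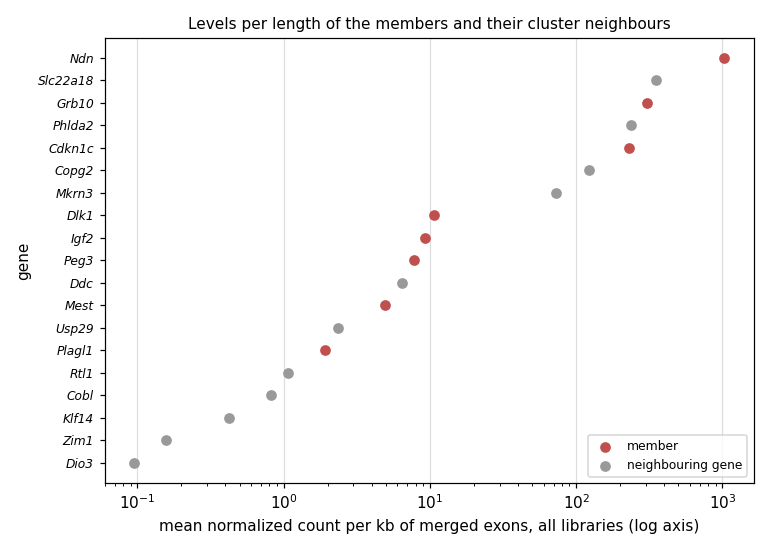
Mean normalized count per kb of merged exons over the 30 libraries (log axis), for the 8 members (red) and genes beside them in the same imprinted clusters (grey). Ndn at 1025 per kb is the highest of the genes drawn, and Plagl1 at 1.91 per kb the lowest member; genes at 0 in every library are not drawn.

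The age and group comparisons were tested with limma on log2(normalized count + 1), fitted over all genes and libraries. Over 16 comparisons, 8 of 128 tests on members passed an adjusted p of 0.05, and 24 had an unadjusted p under 0.05. Ndn passed in 4 of them, Dlk1 in 3 and Plagl1 in 1. Mest, Igf2, Grb10, Peg3 and Cdkn1c passed in none of the 16. Log2 differences below are on the log2(normalized count + 1) scale, which understates the change of low genes, and each carries its standard error (SE). In bulk RNA, fewer cells of a kind and less RNA per cell cannot be told apart.

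**Figure D2:**
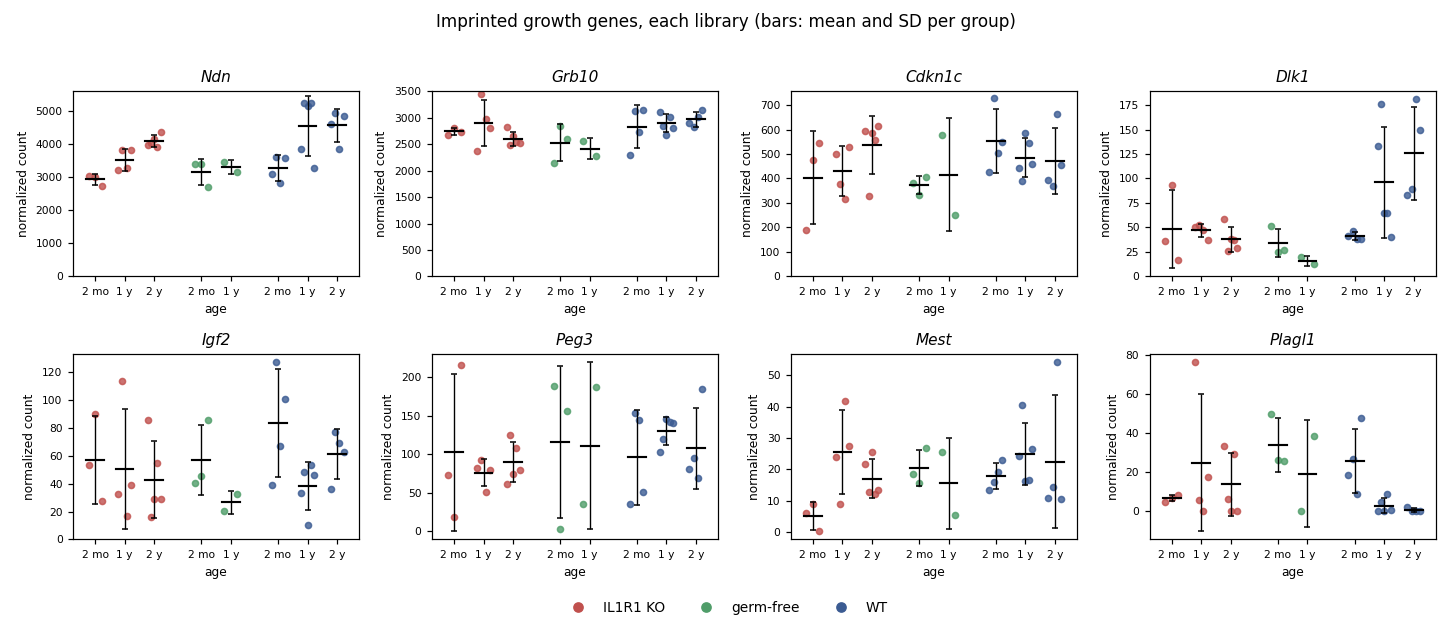
Normalized count of each member in every library (points), by age in months (mo) or years (y), with libraries labelled IL1R1 KO, germ-free and WT from left to right; bars give the mean and SD of each group, and each panel has its own scale. Ndn is higher in the older WT and IL1R1 KO groups, and Dlk1 is highest in WT at 2 years, where its 4 libraries reach 82.7 to 181.

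**Figure D3:**
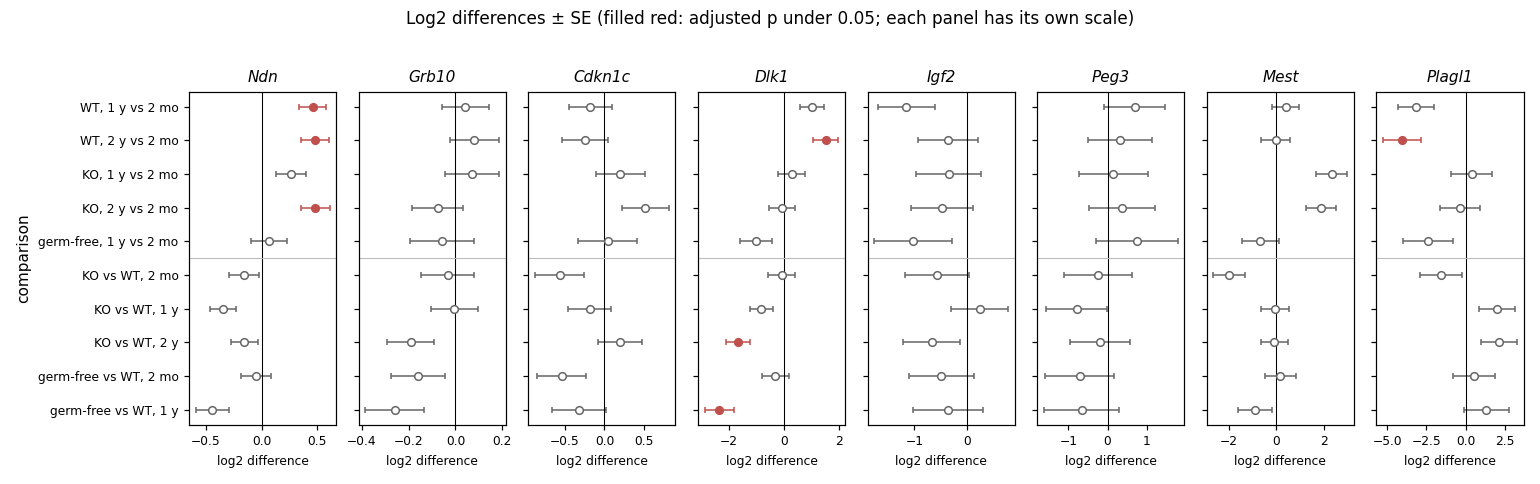
Log2 difference ± SE of each member in 10 comparisons, later age against 2 months, or IL1R1 KO or germ-free against WT. Filled red points passed an adjusted p of 0.05, and all of them belong to Ndn, Dlk1 or Plagl1.

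Dlk1 encodes a transmembrane protein of the Delta family, also cut to a soluble form, that restrains differentiation of adipocytes and other precursors (chr12:109452823-109463336, plus strand, ENSMUSG00000040856). In libraries labelled IL1R1 KO there were 36.1, 93.1 and 16.6 normalized counts at 2 months, 50.6, 52.7, 47.2 and 37.5 at 1 year, and 58.8, 26.3, 38.1, 37.5 and 29.0 at 2 years. Germ-free libraries had 19.7 and 12.2 at 1 year, and 51.1, 25.1 and 26.6 at 2 months. WT libraries had 41.5, 46.5, 38.3 and 38.04 at 2 months, 133, 176, 64.8, 65.1 and 40.6 at 1 year, and 82.7, 89.0, 181 and 150.0 at 2 years. The young WT libraries lay close together, the older ones spread widely, and every WT library of 2 years was above every one of 2 months. At 2 years every library labelled IL1R1 KO was below every WT library, and at 1 year both germ-free libraries were below all 5 WT libraries.

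With age, Dlk1 was higher in WT at 2 years than at 2 months by 1.51 ± 0.453 (limma adjusted p = 0.0447). In that comparison 3 of the 8 members passed, against 5.55% of all tested genes, and the same 3 did not overlap between the ages, against 9.13% of genes. In the same comparison the 12 megakaryocyte and platelet markers summed to 71064 to 85248 at 2 years against 48740 to 51971 at 2 months, with 4 of 12 called higher. The 11 B and plasma cell markers summed to 19582 to 118380 at 2 years against 1586 to 16123 at 2 months, with 0 of 11 called by limma's adjusted p and 2 at an unadjusted p under 0.05. Of these, Igll1 was at 0 in 13 of the 30 libraries, Pax5 in 11 and Ebf1 in 5. The part of either list in the result was not tested. At 1 year the WT difference of Dlk1 was 1.01 ± 0.43 (limma adjusted p = 0.142). The difference of IL1R1 KO from WT at 2 years was -1.68 ± 0.43 (limma adjusted p = 0.0439), with Dlk1 the 1 member called, against 1.42% of genes, and the 1 member with no overlap, against 5.78%. The difference of germ-free from WT at 1 year was -2.35 ± 0.536 (limma adjusted p = 0.0107), with Dlk1 again the 1 member called, against 4.96% of genes. These comparisons share WT libraries and are not independent of each other.

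Whether the age change of Dlk1 differs between the backgrounds was tested directly and did not pass. The change to 2 years under the IL1R1 KO label minus that in WT was -1.59 ± 0.652 (limma adjusted p = 0.395). The change to 1 year in germ-free minus that in WT was -2.03 ± 0.726 (limma adjusted p = 0.317). Within the IL1R1 KO label Dlk1 differed by -0.073 ± 0.468 between 2 years and 2 months (limma adjusted p = 0.959), and within germ-free by -1.02 ± 0.585 between 1 year and 2 months (limma adjusted p = 0.434). In germ-free the ages did not overlap for Dlk1 and Igf2, 2 of 8 members, against 26.5% of all genes. At 1 year, IL1R1 KO differed from WT by -0.83 ± 0.43 (limma adjusted p = 0.458).

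By mean level, Dlk1 stood highest in WT at 2 years, at 126 ± 47.7 normalized counts (SD, n = 4), and in WT at 1 year, at 96.1 ± 56.7 (n = 5). The IL1R1 KO label followed at 48.6 ± 39.8 at 2 months (n = 3) and 47.0 ± 6.7 at 1 year (n = 4). WT at 2 months averaged 41.1 ± 3.95 (n = 4), IL1R1 KO at 2 years 37.9 ± 12.8 (n = 5), germ-free at 2 months 34.3 ± 14.6 (n = 3) and germ-free at 1 year 16.0 ± 5.32 (n = 2). Among neighbours in this order, the 2 germ-free groups were the one pair whose ranges did not overlap.

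The 14 listed erythroid genes were higher by mean log2 level in the groups where Dlk1 was lower than in WT. That level was 9.99 to 10.5 under the IL1R1 KO label against 7.64 to 9.40 in WT at 2 years. At 1 year it was 9.45 to 10.6 in germ-free against 6.39 to 8.43 in WT. Summed normalized counts were 65119 to 80152 under the IL1R1 KO label against 55238 to 66617 in WT at 2 years. At 1 year the sums were 63686 to 74896 in germ-free against 51629 to 67334 in WT. These sums overlapped between the groups, and Car2 alone gave 38997 to 76119 over the 30 libraries. Slc4a1 was the 1 marker listed at 0 anywhere, in 2 libraries. With the mean erythroid level as a covariate, Dlk1 differed from WT by -1.23 under the IL1R1 KO label (limma adjusted p = 0.282) and by -1.49 in germ-free (limma adjusted p = 0.437). The levels of this covariate did not overlap between the groups compared, so its part and that of the label cannot be told apart. The WT age difference of Dlk1 also missed the threshold in 6 of 12 other settings, at 1.37 to 1.55 (limma adjusted p 0.051 to 0.114): no filter, a filter of 50, only the groups compared, library weights, the neutrophil covariate and no high-Mpo libraries. It lost its call without any single WT library of 2 months (adjusted p 0.0727 to 0.0958) or without WT 2 years replicate 2, 3 or 4 (0.0562 to 0.128). The IL1R1 KO difference lost it without WT 2 years replicate 2, 3 or 4 or IL1R1 KO 2 years replicate 2, 3, 4 or 5 (0.0674 to 0.135), and the germ-free one without germ-free 1 year replicate 1 (0.0626) or 2 (0.0953).

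Igf2, the fetal insulin-like growth factor read from the paternal copy (chr7:142650766-142666816, minus strand, ENSMUSG00000048583), was low in all groups. Libraries labelled IL1R1 KO had 53.6, 90.4 and 27.3 normalized counts at 2 months, 32.9, 114, 16.9 and 39.3 at 1 year, and 85.9, 16.1, 28.7, 55.0 and 29.4 at 2 years. Germ-free libraries had 20.6 and 32.6 at 1 year, and 40.3, 45.4 and 86.1 at 2 months. WT libraries had 39.0, 127, 67.3 and 101 at 2 months, 33.7, 48.5, 10.3, 53.7 and 46.1 at 1 year, and 36.2, 77.1, 69.4 and 62.7 at 2 years. The groups compared overlapped, except that both germ-free libraries of 1 year were below all 3 of 2 months. Between 1 year and 2 months Igf2 differed by -1.16 ± 0.54 in WT (limma adjusted p = 0.19), by -1.03 ± 0.735 in germ-free (limma adjusted p = 0.558), and by -0.84 ± 0.367 on average over the 3 backgrounds (limma adjusted p = 0.13).

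Ndn, which encodes necdin, a growth suppressor of the MAGE family that binds E2F1 and p53, was the highest member and the one called most often (chr7:62346569-62350262, plus strand, ENSMUSG00000033585). In libraries labelled IL1R1 KO there were 3040.4, 3021 and 2735 normalized counts at 2 months, 3219, 3815, 3265 and 3819.5 at 1 year, and 3986, 4026, 4149.7, 3903 and 4378 at 2 years. Germ-free libraries had 3447 and 3156 at 1 year, and 3402, 3394 and 2712 at 2 months. WT libraries had 3083, 3608, 2839 and 3586 at 2 months, 3861, 5232, 5158, 5232 and 3294 at 1 year, and 4610.1, 4948, 3854 and 4849 at 2 years. No pair of ages overlapped under the IL1R1 KO label. In WT the libraries of 2 years were all above those of 2 months, while at 1 year replicate 5 lay within the young range. The germ-free ages overlapped.

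In the 3 age comparisons under the IL1R1 KO label, groups did not overlap for 11.4% of all genes at 1 year against 2 months, 16.3% at 2 years against 2 months and 3.80% at 2 years against 1 year. Ndn was higher at 2 years than at 2 months there by 0.48 ± 0.129 (limma adjusted p = 0.0184), as the 1 member called, against 8.02% of genes. In WT it was higher than at 2 months by 0.46 ± 0.118 at 1 year (limma adjusted p = 0.0117), the 1 member called against 10.7% of genes, and by 0.48 ± 0.125 at 2 years (limma adjusted p = 0.0193). Averaged over IL1R1 KO, germ-free and WT it was higher at 1 year by 0.26 ± 0.0804 (limma adjusted p = 0.027), the 1 member called against 14.1% of genes. The 1-year difference alone was 0.26 ± 0.135 under the IL1R1 KO label (limma adjusted p = 0.378) and 0.066 ± 0.161 in germ-free (limma adjusted p = 0.904).

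No difference between the age changes of Ndn passed. At 2 years IL1R1 KO minus WT was 0.0019 ± 0.18 (limma adjusted p = 0.999), and at 1 year germ-free minus WT was -0.39 ± 0.2 (limma adjusted p = 0.497). At 1 year Ndn differed from WT by -0.35 ± 0.118 under the IL1R1 KO label (limma adjusted p = 0.185) and by -0.44 ± 0.148 in germ-free (limma adjusted p = 0.0788). Both passed without WT 1 year replicate 5, with adjusted p of 0.0386 and 0.0206, and the germ-free one also without WT 1 year replicate 1 (0.0432).

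Of the 16 HSC identity genes, 4 were called higher and 1 lower under the IL1R1 KO label at 2 years against 2 months, and 8 higher and 1 lower in WT at 1 year. The 16 genes summed to 147630 to 154810 normalized counts at 2 years against 123360 to 142910 at 2 months under the IL1R1 KO label, and to 156110 to 161930 at 1 year against 126090 to 128510 at 2 months in WT. In germ-free, where Ndn was not called, they summed to 129280 to 140340 at 1 year against 117100 to 132490 at 2 months, and 3 of the 16 were called higher. None of the 16 was at 0 in any library, and their part in the result was not tested. The 12 measured genes of the neutrophil list, which holds primary granule genes such as Mpo and later neutrophil genes such as Ngp and S100a8, summed to 14176 to 17753 in WT at 1 year against 14975 to 122140 at 2 months, with Mmp8 and Ly6g at 0 in 5 libraries each. With the neutrophil list as a covariate the WT difference of Ndn at 1 year was 0.32 (limma adjusted p = 0.219), and with the erythroid list 0.34 (0.188).

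Single libraries weighed on the Ndn calls as well. Without the 6 high-Mpo libraries both WT calls passed, while the IL1R1 KO difference at 2 years, with 1 library left at 2 months, was 0.44 (limma adjusted p = 0.309) and the average over backgrounds 0.26 (0.185). The WT call for Ndn at 2 years was lost without WT 2 months replicate 1 or 3 or WT 2 years replicate 2 or 4 (adjusted p 0.0501 to 0.0708), and the IL1R1 KO one without IL1R1 KO 2 months replicate 3 (0.0828). The average was lost without that library (0.0522), germ-free 2 months replicate 3 (0.0689) or germ-free 1 year replicate 1 (0.086).

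Cdkn1c encodes p57, an inhibitor of cyclin-dependent kinases read from the maternal copy and needed for HSC quiescence (chr7:143458339-143461050, minus strand, ENSMUSG00000037664). Libraries labelled IL1R1 KO had 188, 475 and 547 normalized counts at 2 months, 499, 377, 314 and 529 at 1 year, and 595, 329, 586, 559 and 614 at 2 years. Germ-free libraries had 578 and 253 at 1 year, and 381, 333 and 405 at 2 months. WT libraries had 425, 730.2, 506 and 550.0 at 2 months, 441, 391, 586, 545 and 458 at 1 year, and 392, 369, 665 and 454 at 2 years. All 3 germ-free libraries of 2 months were below all 4 WT libraries of that age, where 7.63% of all genes had no overlap in either direction, and every other pair of groups compared overlapped. Cdkn1c differed from WT at 2 months by -0.54 ± 0.311 in germ-free (limma adjusted p = 0.624) and by -0.57 ± 0.311 under the IL1R1 KO label (limma adjusted p = 0.586). Under the IL1R1 KO label it differed by 0.52 ± 0.297 between 2 years and 2 months (limma adjusted p = 0.345), and in none of the 16 comparisons did Cdkn1c reach even an unadjusted p of 0.05.

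Grb10, an adaptor protein that binds the insulin and IGF1 receptors and dampens their signal (chr11:11930508-12038683, minus strand, ENSMUSG00000020176), was the least variable member, with a coefficient of variation of 0.107 over the 30 libraries. It ranged over 2374 to 3441 normalized counts under the IL1R1 KO label, 2147 to 2835 in germ-free and 2299.8 to 3155 in WT. At 1 year the germ-free libraries, at 2563 and 2273, were below the 5 WT libraries at 3116, 2851, 2682, 3011 and 2805. Dlk1 and Grb10 were the 2 of 8 members with no overlap in that comparison, against 26.3% of all genes. Grb10 differed there by -0.26 ± 0.126 (limma adjusted p = 0.244), and across the 16 comparisons its differences lay between -0.26 and 0.081, with standard errors of 0.0685 to 0.17.

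Plagl1, a zinc finger transcription factor that in mouse regulates other imprinted genes and restrains proliferation (chr10:13060504-13131694, plus strand, ENSMUSG00000019817), was the lowest member and was listed at 0 in 9 of 30 libraries. In libraries labelled IL1R1 KO there were 5.00, 6.99 and 8.29 normalized counts at 2 months, 76.1, 6.01, 0 and 17.4 at 1 year, and 33.2, 6.12, 0, 29.3 and 0 at 2 years. Germ-free libraries had 0 and 38.5 at 1 year, and 49.8, 26.2 and 25.5 at 2 months. WT libraries had 18.8, 26.8, 8.96 and 47.5 at 2 months, 0, 4.79, 0, 8.88 and 0.715 at 1 year, and 2.43, 0, 0 and 0 at 2 years. Every WT library of 1 or 2 years was below every one of 2 months, and at 1 year Plagl1 was the 1 member with no overlap, against 12.5% of all genes. At 1 year that rests on 8.88 in replicate 4 against 8.96 in WT 2 months replicate 3, a gap smaller than 1 read, which was worth 0.888 and 1.28 normalized counts in those libraries. The old IL1R1 KO groups mixed values at 0 with values above their young range.

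Plagl1 was lower in WT at 2 years than at 2 months by a log2 difference of -4.06 ± 1.22 (limma adjusted p = 0.0466), and at 1 year the difference was -3.18 ± 1.16 (limma adjusted p = 0.0795). The size depends on the added constant, since 1 read is worth about 1 normalized count: at 2 years it was -6.59 with 0.1 added (limma adjusted p = 0.0613) and -1.63 with 10 added (0.0743). Under the IL1R1 KO label Plagl1 differed by -0.36 ± 1.26 between 2 years and 2 months (limma adjusted p = 0.918), and that change minus the WT change was 3.70 ± 1.76 (limma adjusted p = 0.5). At 2 years IL1R1 KO differed from WT by 2.12 ± 1.16 (limma adjusted p = 0.512). Without the 6 high-Mpo libraries the WT difference at 2 years was -3.36 (limma adjusted p = 0.35), and without WT 2 months replicate 1, 2 or 4 or WT 2 years replicate 2, 3 or 4 the call was lost (0.0719 to 0.131).

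Peg3 encodes a large zinc finger protein read from the paternal copy (chr7:6703892-6730431, minus strand, ENSMUSG00000002265). Libraries labelled IL1R1 KO had 72.7, 18.7 and 216 normalized counts at 2 months, 81.7, 92.3, 50.7 and 79.0 at 1 year, and 62.0, 125, 74.7, 108 and 79.9 at 2 years. Germ-free libraries had 34.8 and 187 at 1 year, and 188, 3.03 and 156 at 2 months. WT libraries had 35.3, 154, 144 and 51.2 at 2 months, 103, 120.3, 145, 141 and 139.8 at 1 year, and 81.5, 95.3, 69.6 and 184 at 2 years. The young libraries spread widely, and all 4 libraries labelled IL1R1 KO were below all 5 WT libraries at 1 year, where Peg3 was the 1 member with no overlap, against 6.24% of all genes. That difference was -0.79 ± 0.767 (limma adjusted p = 0.766), and Peg3 passed in 0 of the 16 comparisons by limma's adjusted p or at an unadjusted p of 0.05. The germ-free difference of Peg3 between 1 year and 2 months was 0.74 ± 1.04 (limma adjusted p = 0.809). It was -1.07 without germ-free 2 months replicate 2, at 3.03 (0.576), and 4.35 without the high-Mpo libraries, which leaves that library alone at 2 months (0.00167).

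Mest, which encodes a protein of the alpha/beta hydrolase fold read from the paternal copy (chr6:30723547-30748465, plus strand, ENSMUSG00000051855), was lowest in the young libraries labelled IL1R1 KO. These had 6.17, 9.04 and 0.424 normalized counts at 2 months, with 23.9, 9.01, 41.9 and 27.5 at 1 year and 21.7, 12.7, 25.6, 12.1 and 13.4 at 2 years under the same label. Germ-free libraries had 25.7 and 5.37 at 1 year, and 18.7, 15.7 and 26.7 at 2 months. WT libraries had 13.5, 16.1, 19.04 and 23.1 at 2 months, 24.1, 40.4, 16.4, 16.6 and 26.5 at 1 year, and 10.8, 14.3, 54.1 and 10.5 at 2 years. At 2 months the 3 IL1R1 KO libraries were below all 4 WT libraries for Mest and for Plagl1, 2 of 8 members, against 7.06% of all genes. The Mest difference there was -1.99 ± 0.657 (limma adjusted p = 0.264).

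Under the IL1R1 KO label Mest differed from 2 months by 2.33 ± 0.657 at 1 year (limma adjusted p = 0.0592) and by 1.89 ± 0.628 at 2 years (limma adjusted p = 0.0607), both outside the threshold. In WT the difference of 1 year from 2 months was 0.40 ± 0.577 (limma adjusted p = 0.743). The IL1R1 KO change minus the WT change was 1.93 ± 0.874 at 1 year (limma adjusted p = 0.443) and 1.91 ± 0.874 at 2 years (limma adjusted p = 0.47). Without IL1R1 KO 2 months replicate 2, both IL1R1 KO age differences of Mest passed (adjusted p = 0.0375 and 0.0342), and the 1-year one passed also without IL1R1 KO 1 year replicate 2 (0.0403).

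In the remaining comparisons 0 of 8 members passed limma's adjusted p of 0.05. Among the age comparisons, the share of all genes called was 2.00% for IL1R1 KO at 1 year against 2 months, 0.177% for IL1R1 KO at 2 years against 1 year, 2.10% for germ-free at 1 year against 2 months and 0.0118% for WT at 2 years against 1 year. Members with an unadjusted p under 0.05 in these numbered 1, 0, 0 and 0. Against WT, the share was 0.407% and 1.30% for IL1R1 KO at 2 months and 1 year and 0.601% for germ-free at 2 months, with 1, 1 and 0 members at an unadjusted p under 0.05. For the differences between age changes it was 0.0354% and 0.395% for IL1R1 KO minus WT at 1 and 2 years and 0.00% for germ-free minus WT, with 1, 3 and 1 such members. Over all 8 members the median log2 difference from 2 months in WT was 0.22 at 1 year and 0.032 at 2 years, beside 0.014 and 0.0074 over all tested genes. All 8 member differences of IL1R1 KO from WT at 2 months were below 0, with a median of -0.41 beside 0 over all genes.

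Of 52 other imprinted genes listed, 35 were tested. Against 2 months, 4 were higher and 2 lower at 1 year in WT, 2 higher and 0 lower at 2 years in WT, 1 higher and 1 lower at 1 year under the IL1R1 KO label, and 3 higher and 1 lower at 2 years under the IL1R1 KO label. Of all tested genes 10.7%, 5.55%, 2.00% and 8.02% were called in these comparisons, in the same order. In germ-free at 1 year 0 of the 35 passed limma's adjusted p, against 2.10% of all tested genes, and 2 had an unadjusted p under 0.05. Their median log2 difference was 0.048 under the IL1R1 KO label at 2 years and 0.0058 in WT at 1 year, beside 0.0027 and 0.014 over all genes. Between groups the 1 gene called was Cd81, a tetraspanin, lower in germ-free than in WT at 1 year by a log2 difference of -0.37 ± 0.1 (limma adjusted p = 0.0315). The Cd81 call was lost in 4 of 11 other settings, the erythroid covariate among them (adjusted p = 0.647). It was lost also without either germ-free library of 1 year, which leaves 1 in that group, and without WT 1 year replicate 3, 4 or 5 (0.0547 to 0.0713). The erythroid covariate did not overlap between germ-free and WT at 1 year, so it cannot be told apart from the label.

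Asb4, a SOCS box protein that serves ubiquitin ligases, was higher at 1 and 2 years in WT and at 2 years under the IL1R1 KO label. Under the IL1R1 KO label, libraries had 349.9 to 522 normalized counts at 2 years against 74.0 to 246 at 2 months. WT libraries had 68.2, 101, 166 and 188 at 2 months, 297, 284, 340.1, 350.3 and 261 at 1 year, and 236, 325, 454 and 246 at 2 years, so that the young libraries overlapped with neither later age. Asb4 differed from 2 months by 1.45 ± 0.347 under the IL1R1 KO label at 2 years (limma adjusted p = 0.00809), by 1.32 ± 0.318 in WT at 1 year (limma adjusted p = 0.00629) and by 1.32 ± 0.336 in WT at 2 years (limma adjusted p = 0.0158). At 1 year the difference was 1.32 ± 0.363 under the IL1R1 KO label (limma adjusted p = 0.0522) and 0.76 ± 0.433 in germ-free (limma adjusted p = 0.426). Both WT calls passed without the high-Mpo libraries. The IL1R1 KO call for Asb4 was lost without IL1R1 KO 2 months replicate 2 (adjusted p = 0.115), the library lowest in Asb4 at 74.0, and the WT one at 2 years without WT 2 months replicate 1 (0.071) or 2 (0.0515) or WT 2 years replicate 3 (0.064).

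Snrpn, a splicing protein gene whose imprinted region also holds Ndn, was higher in older WT libraries, at 425 to 603 normalized counts at 1 year and 392 to 599 at 2 years against 175 to 386 at 2 months. Its differences were 0.78 ± 0.188 (limma adjusted p = 0.00651) at 1 year and 0.69 ± 0.198 (limma adjusted p = 0.0361) at 2 years. Without the 6 high-Mpo libraries the Snrpn differences were 0.49 (limma adjusted p = 0.19) and 0.40 (0.406). Each Snrpn call was lost in 3 of 12 other settings, this one among them. Without WT 2 months replicate 4 alone neither passed (0.0512 and 0.183), and the one at 2 years was lost also without WT 2 years replicate 2 (0.079) or 3 (0.119).

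Phlda2, a brake on placental growth next to Cdkn1c, was lower in WT at 1 year, at 182 to 277 normalized counts against 316 to 419.7 at 2 months, and fell by 0.72 ± 0.195 on the log2 scale (limma adjusted p = 0.0158). Gnas, the stimulatory G protein subunit, fell by 0.46 ± 0.114 in the same comparison (limma adjusted p = 0.00816). The Phlda2 call was lost without WT 2 months replicate 3 (adjusted p = 0.053) and in 1 of 12 other settings. The Gnas call was lost in 3 of 12 other settings, leaving out the high-Mpo libraries among them (0.202). Under the IL1R1 KO label at 2 years Impact, which restrains the activation of the kinase GCN2, was higher than at 2 months by 0.73 ± 0.143 (limma adjusted p = 0.00128) and Tssc4 by 1.11 ± 0.239 (limma adjusted p = 0.00343). Sgce, the epsilon sarcoglycan, was lower by a log2 difference of -0.57 ± 0.122 (limma adjusted p = 0.00328). Without the high-Mpo libraries, with 1 library left at 2 months, the differences were 0.59 for Impact, 1.17 for Tssc4 and -0.55 for Sgce (adjusted p = 0.132, 0.0913 and 0.166).

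**Figure D4:**
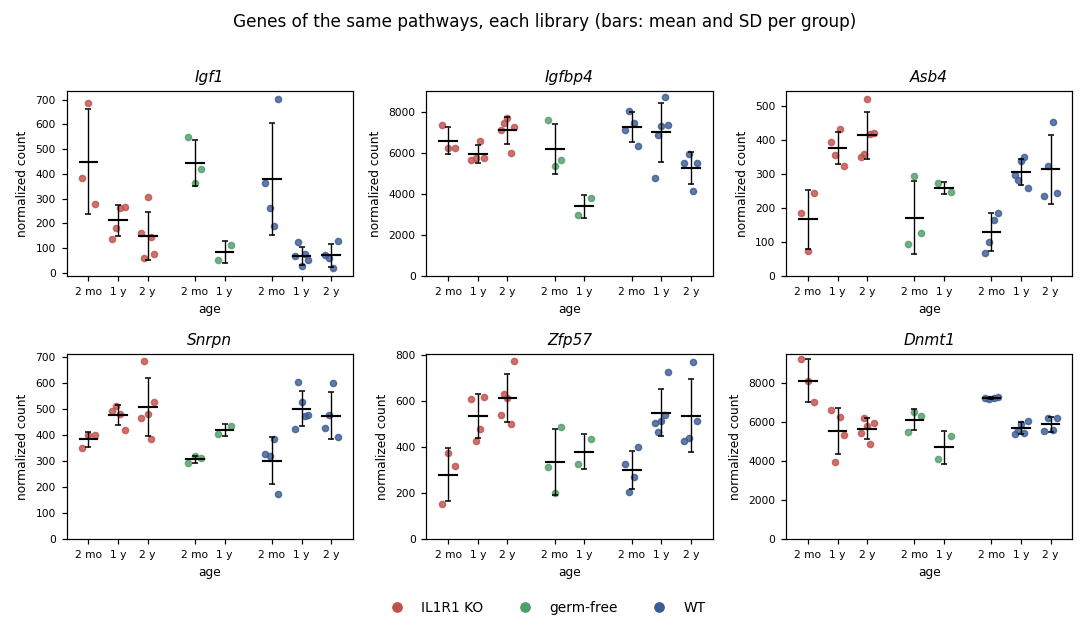
Normalized count of 6 genes of the same pathways in every library (points), by age in months (mo) or years (y), with libraries labelled IL1R1 KO, germ-free and WT from left to right; bars give the mean and SD of each group, and each panel has its own scale. Igf1 is lower at the later ages, where WT libraries reach at most 129 against at least 187 at 2 months, and Asb4 and Zfp57 are higher in WT at 1 year.

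The insulin-like growth factor axis was followed through 33 listed genes, of which 26 were tested. Against 2 months, 3 were higher and 1 lower at 2 years under the IL1R1 KO label, 0 higher and 2 lower at 1 year in germ-free, 1 higher and 2 lower at 1 year in WT, and 0 higher and 3 lower at 2 years in WT. Of all tested genes 8.02%, 2.10%, 10.7% and 5.55% were called in these comparisons, in the same order. Igf1, the ligand that shares its receptor with Igf2, fell in 5 comparisons. Libraries labelled IL1R1 KO had 381, 686 and 279 normalized counts at 2 months, 136, 181, 261 and 267 at 1 year, and 161, 57.5, 305, 144 and 74.3 at 2 years. Germ-free libraries had 51.0 and 113 at 1 year, and 548, 364 and 419.9 at 2 months. WT libraries had 362, 261, 187 and 701 at 2 months, 66.2, 123, 25.6, 76.2 and 49.9 at 1 year, and 72.1, 58.9, 18.8 and 129 at 2 years. Young and later libraries did not overlap in WT or germ-free, and under the IL1R1 KO label they overlapped at 2 years by replicate 3.

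The Igf1 difference from 2 months was -1.73 ± 0.547 under the IL1R1 KO label at 2 years (limma adjusted p = 0.047), -2.51 ± 0.684 in germ-free at 1 year (limma adjusted p = 0.0489), -2.45 ± 0.503 in WT at 1 year (limma adjusted p = 0.00156) and -2.53 ± 0.53 in WT at 2 years (limma adjusted p = 0.00294). On average over the backgrounds at 1 year it was -1.996 ± 0.341 (limma adjusted p = 0.000132), and this average passed under every alternative run. On the same average 9 of 13 monocyte and macrophage markers were called lower and 0 higher, against 14.1% of all tested genes. In WT these markers summed to 880 to 1407 at 1 year against 1699 to 19455 at 2 months. No alternative used that list as a covariate, and its part was not tested. Igf2 passed in none of these comparisons, and Igf1 and Igf2 were not tested against each other. Without the 6 high-Mpo libraries the Igf1 difference was -2.45 under the IL1R1 KO label (limma adjusted p = 0.143) and -2.24 in germ-free (0.246), with 1 library left at 2 months in each, and -2.09 and -2.17 in WT (0.0583 and 0.0725). The germ-free call was lost without any of its 5 libraries (0.063 to 0.336) and the IL1R1 KO one without replicate 1 or 2 of 2 months or 1, 2, 4 or 5 of 2 years (0.0577 to 0.21).

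Other genes of the axis were called as well. Under the IL1R1 KO label at 2 years Irs2, an adaptor of the insulin and IGF1 receptors, was higher than at 2 months by 1.01 ± 0.316 (limma adjusted p = 0.046), Foxo1 by 0.68 ± 0.214 (limma adjusted p = 0.045) and Pik3r1, the regulatory subunit of phosphoinositide 3-kinase, by 0.51 ± 0.116 (limma adjusted p = 0.00483). With 1 library left out, the Foxo1 call was lost in 7 of 8 fits and the Irs2 call in 6 of 8. Each was lost also in 6 of 13 other settings. Igfbp4, which holds IGFs away from their receptor, had 3000.5 and 3809.6 normalized counts in germ-free at 1 year, against 7616, 5392 and 5649 in germ-free at 2 months and 4769, 6861, 7313, 8730.1 and 7356 in WT at 1 year. It differed by -0.86 ± 0.182 from 2 months (limma adjusted p = 0.00779) and by -1.02 ± 0.167 from WT (limma adjusted p = 0.00063). Pik3r1 was also higher under the IL1R1 KO label than in WT at 2 years by 0.54 ± 0.106 (limma adjusted p = 0.00593), and at 1 year on average over the backgrounds by 0.38 ± 0.0723 (limma adjusted p = 0.000408). Foxo3, a transcription factor kept inactive by this pathway, was higher in germ-free than in WT at 1 year by 0.49 ± 0.134 (limma adjusted p = 0.0336). With the erythroid list as a covariate these 3 differences from WT were -0.87 for Igfbp4, 0.42 for Pik3r1 and 0.63 for Foxo3 and did not pass (adjusted p = 0.12, 0.0808 and 0.175). The covariate did not overlap between the groups in these comparisons, so it cannot be told apart from the label. Without germ-free 1 year replicate 1, Igfbp4 did not pass against WT (0.0543) or 2 months (0.151), nor did Foxo3 (0.371), which was lost also without WT 1 year replicate 3, 4 or 5 (0.061 to 0.0733), while Igfbp4 against 2 months was lost also without germ-free 2 months replicate 1 (0.0502).

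Factors that keep imprints were followed through 27 listed genes, 26 of them tested. Against 2 months, 1 was higher and 3 lower at 2 years under the IL1R1 KO label and 1 higher and 2 lower at 1 year in WT, where 8.02% and 10.7% of all tested genes were called. At 2 years in WT 0 passed limma's adjusted p, while 5 had an unadjusted p under 0.05. The list's median log2 difference was -0.18 under the IL1R1 KO label at 2 years and -0.24 in WT at 1 year, beside 0.0027 and 0.014 over all genes. Zfp57, which guards methylated imprints, had 499.7 to 773 normalized counts under the IL1R1 KO label at 2 years against 152 to 372 at 2 months, and 466 to 724 in WT at 1 year against 206 to 402 at 2 months. Its differences were 1.20 ± 0.279 (limma adjusted p = 0.0061) under the IL1R1 KO label, 0.89 ± 0.256 (limma adjusted p = 0.0228) in WT, and 0.72 ± 0.174 at 1 year on average (limma adjusted p = 0.00489). The IL1R1 KO call for Zfp57 was lost without the high-Mpo libraries, with 1 library left at 2 months (0.70, adjusted p = 0.303), or IL1R1 KO 2 months replicate 1 (0.112), and the WT one without WT 2 months replicate 2 (0.104) or 3 (0.0531) or WT 1 year replicate 5 (0.0704).

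Trim28, the corepressor that ZFP57 recruits, was higher in germ-free than in WT at 1 year by 0.80 ± 0.186 (limma adjusted p = 0.012), which was lost without germ-free 1 year replicate 1 (0.591). In WT it was lower at 1 year than at 2 months by a difference of -0.76 ± 0.149 (limma adjusted p = 0.00104). Dnmt1, the maintenance DNA methyltransferase, had 5405 to 6068 normalized counts in WT at 1 year against 7171 to 7282 at 2 months, a difference of -0.35 ± 0.112 (limma adjusted p = 0.0435). On average over the backgrounds at 1 year Dnmt1 fell by 0.43 ± 0.0759 on the log2 scale (limma adjusted p = 0.000177), and Uhrf1, which brings it to newly copied DNA, fell by 0.71 ± 0.131 (limma adjusted p = 0.000345). Ezh2, the Polycomb methyltransferase, fell by 0.44 ± 0.0963 on that average (limma adjusted p = 0.00187). Cell cycle genes moved with these: the 33 listed summed to 125100 to 144850 in WT at 1 year against 166810 to 179520 at 2 months, and their part was not tested. The average differences of Dnmt1, Uhrf1, Ezh2 and Zfp57 passed under every alternative run, while the WT call for Dnmt1 was lost without each of its 9 libraries in turn (adjusted p 0.0546 to 0.0938).

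Among 13 near relatives of the members, 12 were tested. Against 2 months, 1 was higher and 3 lower at 1 year in WT, and 0 higher and 2 lower at 2 years in WT. Under the IL1R1 KO label at 2 years 1 was higher and 1 lower, and in germ-free at 1 year 0 higher and 1 lower. Of all tested genes 10.7%, 5.55%, 8.02% and 2.10% were called in these comparisons, in the same order. Cdkn1a, the p21 inhibitor that acts on the same kinases as Cdkn1c, was higher under the IL1R1 KO label at 2 years, at 4343 to 5781 normalized counts against 749 to 1609 at 2 months, by 2.36 ± 0.597 (limma adjusted p = 0.0147). Grb7 and Grb14, the adaptors most like Grb10, moved in opposite directions in WT. Grb7 had 11.3 to 89.7 normalized counts at 1 year against 0 to 3.29 at 2 months (limma adjusted p = 0.0147), and Grb14 had 0 to 8.64 against 10.2 to 70.9 (limma adjusted p = 0.0156). Grb2 was called lower there by a log2 difference of -0.44, and higher in germ-free than in WT at 1 year by 0.66. The Grb2 calls were lost in 5 of 9 and 1 of 7 fits with 1 library left out. Without the 6 high-Mpo libraries the differences were 2.79 for Cdkn1a, with 1 library left at 2 months, 4.49 for Grb7 and -2.86 for Grb14 (adjusted p = 0.136, 0.0951 and 0.154). The Cdkn1a call was lost also without IL1R1 KO 2 months replicate 1 (0.0726) or 2 (0.0686), and the Grb14 call without WT 2 months replicate 4 (0.079).

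The genes with the pattern most like each member were named by Pearson correlation of log2(normalized count + 1) over the 30 libraries, which share groups and differ in depth. These are descriptions with no test. Ndn was most like Procr, the HSC surface receptor EPCR (r = 0.841, Spearman rho = 0.838), Il27ra (0.814, 0.793) and Apoe (0.808, 0.800). Dlk1 was most like Tmem184b (r = 0.725, rho = 0.722), Coprs (0.702, 0.738) and Plppr3 (0.683, 0.676). Plagl1 was most like Xiap (r = 0.691, rho = 0.714), Rgs7bp (0.661, 0.644) and Tspan2 (0.659, 0.638). The first gene was Klf3 for Igf2 (r = 0.709), Tmem51 for Mest (0.702), Sssca1 for Grb10 (0.642) and Fbxo31 for Cdkn1c (0.732). For Peg3 it was Prss16, with r = 0.795 and a rho of 0.525. Between members, the highest correlation was that of Dlk1 with Ndn (r = 0.555, rho = 0.486) and the lowest that of Plagl1 with Ndn (r = -0.42, rho = -0.415).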

How the data were processed

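RNA of sorted mouse bone marrow HSCs was read from one end (reads of 100 bases) after Smart-seq2 and Nextera XT tagmentation, per the labels' protocols. The authors deposited values per gene that they name normalized counts, a signal scale on which library sums are alike but not equal. The submitters' processing notes name DESeq2 1.26.0, Salmon 1.2.0.0, cutadapt 2.10 and FastQC 0.11.9, and GRCm38 as the build. No source used here says how estimates per transcript became values per gene. Between 9.70% and 18.5% of a library's low values were whole multiples of 1 read within 0.001, so whole reads were not recovered and no count model was used.

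Libraries were grouped by title. Genes with at least 10 normalized counts in at least 3 libraries were tested with limma 3.58.1 (statmod 1.5.0) in R 4.3.3, with trend and robust settings, on log2(normalized count + 1), with 1 mean per group over all 30 libraries, and two-sided p-values were adjusted by Benjamini-Hochberg over the 16958 genes of each of 16 comparisons. The script was tested on simulated data. Positions and lengths came from GENCODE M21, promoters from RefSeq. Tables and figures were made with pandas 2.3.3, matplotlib 3.10.9 and numpy 2.4.6 in Python 3.11.15.

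The members and gene lists were chosen with earlier results of these data known. Named genes were all members, their cluster neighbours, up to 4 called genes of each list and comparison with the smallest p, and the 3 genes most correlated with each member. Alternatives were other added constants, filters and scalings, only the groups compared, library weights, a replicate block, the other age for IL1R1 KO 1 year replicate 1, covariates for neutrophil, erythroid and stromal lists, and leaving out the 6 high-Mpo libraries or each library in turn.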

Additional observations from a re-analysis of the deposited data

Results flagged for a closer look

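In the 40 groups of 4 or 5 libraries by member, 3 held 1 library far from the rest by Dixon's criterion, where chance gives about 1 in 20. Mest was at 54.1 normalized counts in WT 2 years replicate 3, against 10.5 to 14.3 in the other WT libraries of that age. Plagl1 was at 2.43 in WT 2 years replicate 1, with the other 3 libraries of the group listed at 0; tied values make any other value meet this criterion, and 1 read was worth 1.04 there. Cdkn1c was at 329 in IL1R1 KO 2 years replicate 2, against 559 to 614 in the other 4. Of 24 tests of a difference between age changes on members, 0 passed limma's adjusted p, and 5 had an unadjusted p under 0.05.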

How the results depend on the processing

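Depth sets a floor for the low members: 1 read is worth 0.523 to 1.78 normalized counts, so Plagl1 and Mest at 0 to 10 rest on few reads. Of 8 members, 1 was called in WT between 2 years and 2 months (3 in the fit reported) with no filter, only the groups compared, library weights, the neutrophil covariate or without high-Mpo libraries, and 1 of the 6 members that pass a filter of 50. In WT at 1 year 0 were called (1 reported) with the erythroid covariate, and the 1 called was Peg3 with the neutrophil covariate and Plagl1 with only the groups compared. The neutrophil covariate did not overlap between these WT ages and cannot be told apart from age there. In IL1R1 KO at 2 years against 2 months, 2 were called (1 reported) with 0.1 added or the erythroid covariate, and 0 with the stromal covariate, chosen after seeing the data, or without high-Mpo libraries. For the average at 1 year, 0 were called (1 reported) with only the groups compared, library weights or the erythroid covariate, 2 with IL1R1 KO 1 year replicate 1 placed at 2 months, and the 1 called was Peg3 with the neutrophil covariate or without high-Mpo libraries. For IL1R1 KO against WT at 2 years, 0 were called (1 reported) with no filter, the replicate block or the erythroid covariate, and for germ-free against WT at 1 year 0 (1 reported) with the erythroid covariate. In both comparisons the erythroid covariate did not overlap between the groups and cannot be told apart from the label. Without high-Mpo libraries 1 member, Peg3, was called (0 reported) in germ-free at 1 year against 2 months and in germ-free against WT at 2 months. The causes were not tested.

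With 1 library left out at a time, the members called numbered 1 to 1 in WT at 1 year, 0 to 3 in WT at 2 years, 0 to 1 in IL1R1 KO at 1 year, 0 to 2 in IL1R1 KO at 2 years, 0 to 2 for the average, 0 to 1 for IL1R1 KO against WT at 1 year and also at 2 years, and 0 to 2 for germ-free against WT at 1 year. Where 1 library was left in a group (germ-free 1 year, or IL1R1 KO and germ-free 2 months without high-Mpo libraries), it was assumed to vary like the other groups.

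No called difference changed sign. Member differences with no call were followed for sign only if their unadjusted p was under 0.05 or they were described singly above. Of the differences followed with no call, 6 changed sign under the settings below, and 3 more, all of Peg3, with 1 library left out. The other differences with no call were not followed. The Ndn age change to 2 years, IL1R1 KO minus WT, was -0.084 with library weights, -0.032 with IL1R1 KO 1 year replicate 1 at 2 months, -0.066 with the stromal covariate and -0.18 without high-Mpo libraries, and -0.077 to 0.069 with 1 library left out. Ndn in germ-free at 1 year was -0.041 without high-Mpo libraries and -0.043 to 0.13 with 1 library left out. Dlk1 in IL1R1 KO at 2 years was 0.14 with the replicate block and -0.66 to 0.55 with 1 library left out, and Plagl1 there was 0.21 with 10 added and -0.99 to 0.28. Mest in WT at 1 year was -0.26 with the erythroid covariate, and Cdkn1c in IL1R1 KO against WT at 2 months 0.035 without high-Mpo libraries. With 1 library left out Peg3 ran from -1.07 to 1.94 in germ-free at 1 year, -0.079 to 0.92 for the average and -1.69 to 1.09 in germ-free against WT at 2 months.

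The main fit took no pairing by replicate number. Same-numbered libraries of different groups correlated by 0.00941 on average (-0.11 to 0.165, 5 of 88 pairs over 0.1), against -0.00273 for other numbers. Of 30 libraries, 11 matched their own number best. The share expected by chance was not computed, so these values do not settle whether replicate numbers pair the samples. The replicate block lost 1 member call, Dlk1 in IL1R1 KO against WT at 2 years (Dlk1 -1.51, limma adjusted p = 0.0978).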
